A study of Mus musculus with 2 samples.

Results

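The genes described here were 48 genes of the cell cycle and DNA replication. They comprised 8 cyclins, 4 cyclin-dependent kinases (CDKs), 3 CDK inhibitors, 4 genes of the RB-E2F switch, 9 genes of origin licensing and the replicative helicase, 5 of DNA synthesis and nucleotide supply, 7 mitotic kinase and checkpoint genes, 6 genes of mitotic motors, kinetochores and chromosome structure, and 2 of repair and chromatin. A called transcript was assigned to one of them when it carried that gene name in the deposited annotation. Of the 48 genes, 28 were named on at least 1 transcript, among 11054 genes named in the series.

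The assay was GRO-seq (global run-on sequencing), in which polymerases already engaged on DNA extend their transcripts in isolated nuclei and incorporate a bromine-labelled nucleotide. The cells were bone marrow-derived macrophages (BMDMs) of wild-type (Wt) mice, grown for 6 days in L929 supernatant, which supplies the growth factor M-CSF. The age label was 8 to 12 weeks. The control library came from cells without IL-4 and the IL-4 library from cells given IL-4 at 20 ng/ml for 1 hr. Run-on reactions on isolated nuclei were run in duplicate and pooled, and about 100 ng of nascent RNA went into 1 library per condition. There was therefore no replicate, no test was possible, and every difference below compares these 2 libraries. The measurement is the score of a called transcript, printed to 1 decimal, and sequencing depth is unknown. In such bulk samples, fewer cycling cells and less RNA per cell cannot be told apart.

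A dividing cell licenses its replication origins in G1 by loading the MCM helicase, is committed to S phase when cyclin-CDK complexes inactivate RB and release E2F factors, and then copies its DNA before cyclin B-CDK1 drives mitosis. CDK inhibitors of the CIP/KIP and INK4 families oppose these steps. In BMDMs, M-CSF drives proliferation, and IL-4 is known as a brake on that proliferation, acting in part through STAT6 and the CDK inhibitor p21, the product of Cdkn1a. In some tissues IL-4 has the opposite role and drives local proliferation of resident macrophages.

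The 48 genes were compared between the libraries to describe how the proliferation program was transcribed before and after 1 hr of IL-4. Cdkn1a was the member with the clearest gain, with a highest score of 1.0 in control and 2.3 after IL-4 and with 13.3% and 65.2% of its length covered by called transcripts of its own strand. Rb1, which encodes the retinoblastoma protein, stood lower after IL-4, with highest scores of 1.6 and 0.4. Most S-phase and mitotic genes had no transcript called on their own strand in either library. Most protein-coding genes had none either, as 36.0% of them had one in control and 37.7% after IL-4.

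By name, 25 members had a value in control and 22 after IL-4, where a value is the highest score among the transcripts that carry the name. Values in both libraries were found for 19, in control only for 6 and after IL-4 only for 3, and 20 had none in either. The one-library members were thus 24% of those valued in control and 13.6% of those valued after IL-4, against 9.65% and 12.1% of all named genes. Their values were all 0.1 or 0.2, and those of Mad2l1, Pola1, Gins1 and Brca1 lay on the strand opposite to the gene. The shares can therefore not be read as a loss of members after IL-4. The 20 without a value were Top2a, Ccnb1, Ccna2, Ccne1, Ccne2, Ccnd1, Ccnd2, E2f2, Mcm2, Mcm4, Mcm5, Pcna, Aurka, Bub1, Bub1b, Cdc20, Cenpe, Cenpf, Rrm1 and Rrm2. These genes had no row in the files used here, which does not show that they were not transcribed. The median value of the members was 0.3 in control and 0.35 after IL-4, against 0.5 and 0.3 over all named genes. The member medians were over different sets, the 25 and the 22 with a value, and do not show a rise of the members.

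**Figure D1:**
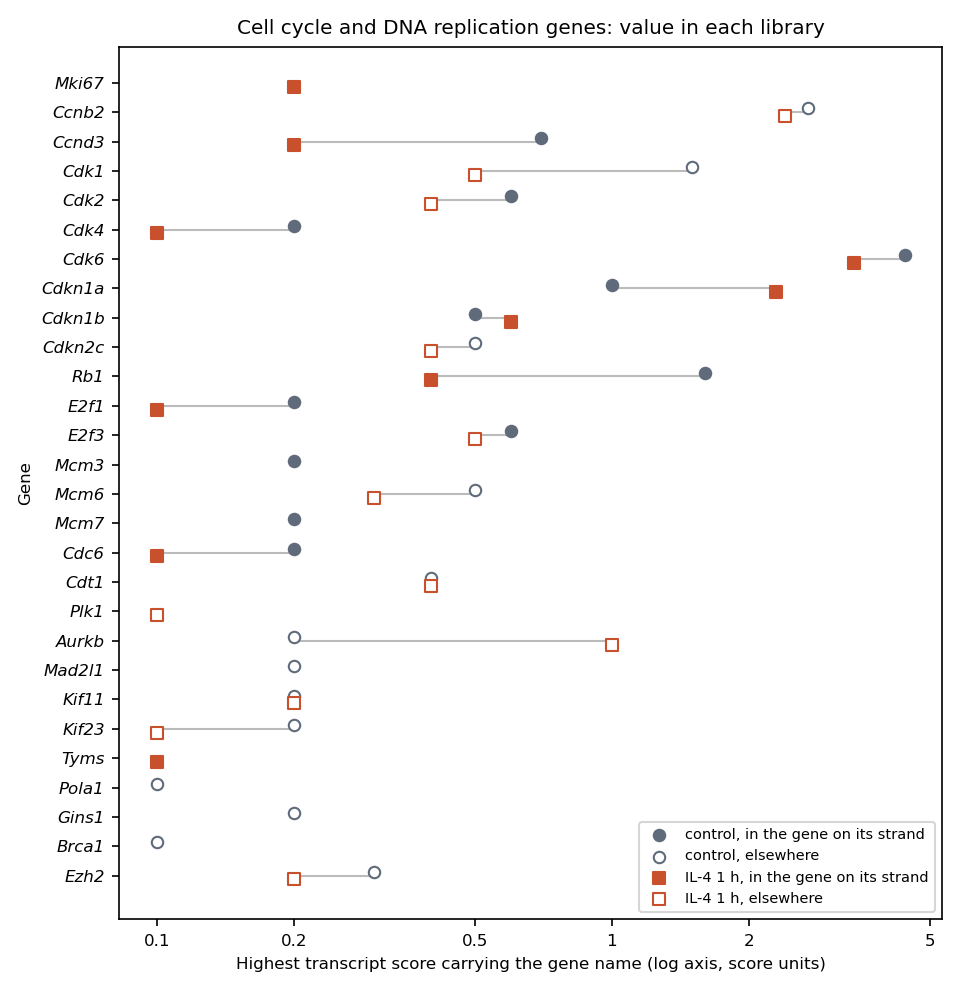
Highest score among transcripts carrying each gene name (horizontal log axis, score units) for the 28 members with a value in control (grey circles) or after IL-4 (orange squares). Filled symbols mark values from a transcript in the gene on its own strand (12 members in control, 10 after IL-4), open symbols values from elsewhere, and the range runs from 0.1 to the 4.4 of Cdk6 in control.

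The name on a transcript marks the nearest promoter, not the transcribed gene, and this mattered for the members. Of the 62 control transcripts named for a member, 31 overlapped that gene on its strand, 5 overlapped it on the other strand and 26 lay outside it. After IL-4 the numbers were 29, 3 and 35 of 67. Transcription of each gene was therefore also read from all transcripts on its own strand that overlapped it by at least 1 bp. By this measure 13 members (27.1%) were detected in control and 13 (27.1%) after IL-4. The share over all 21911 protein-coding genes was 36.0% in control and 37.7% after IL-4. Of the members, 10 were detected in both libraries. Mcm3, Mcm7 and Cdt1 were detected in control only, Mki67, Tyms and Ezh2 after IL-4 only, and 32 in neither. Median gene length was 15.8 kb for the members and 17.4 kb for all protein-coding genes. With scores of 0.1 left out, 13 members were detected in control and 9 after IL-4. The share of all genes at this limit was not computed, and the median gene also scored lower after IL-4 (log2 ratio of scores -0.38). These counts can therefore not be read as a change in the members.

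Ratios of IL-4 to control were taken relative to the median gene, -0.38 on the log2 scale over the 8879 genes valued in both libraries, and are called centred. Of the 19 members in both, 2 were at least 2-fold higher after IL-4 (10.5%) and 3 at least 2-fold lower (15.8%). Over all genes 8.06% were higher and 8.62% lower. Scores are known to within 0.05. The lowest and highest ratio compatible with that rounding are given below as the rounding range, which is not a replicate error. The same 2 and 3 members stayed beyond 2-fold over their whole rounding range, as did 3.67% and 3.85% of all genes. The rounding range of 11 of the 19 members included no change. The median centred log2 ratio over the 19 members was -0.21, with 9 above 0 and 10 below, and the standard deviation over the 8879 genes was 0.78.

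**Figure D2:**
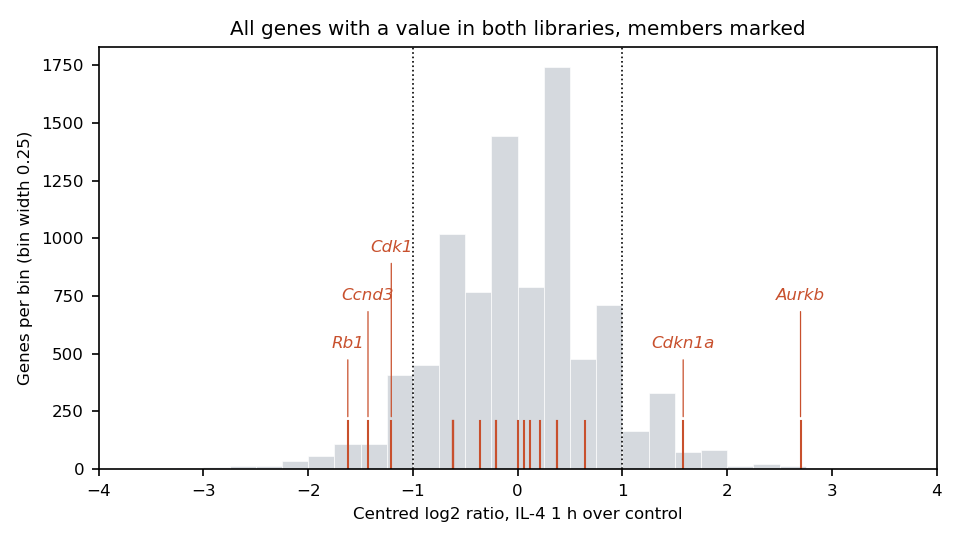
Centred log2 ratio of IL-4 over control (horizontal axis, log2 units) for the 8879 genes with a value in both libraries, as genes per bin of 0.25 (grey bars), with the 19 members as orange ticks and dotted lines at 2-fold. Aurkb and Cdkn1a lie beyond 2-fold on the higher side and Ccnd3, Cdk1 and Rb1 on the lower side, while the other members lie between the lines.

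For Aurkb and Cdk1, the values did not come from the gene itself. Aurkb encodes the mitotic kinase Aurora B. Its value was 0.2 in control, from a 278 bp transcript inside the neighbouring gene Ctc1. After IL-4 it was 1.0, from a 38 bp intergenic transcript annotated as a tRNA-Asp gene, whose 5' end lay 4620 bp upstream of the Aurkb start. The centred log2 ratio of 2.70 (rounding range 2.30 to 3.19) thus set side by side transcripts at different places, and no transcript overlapped Aurkb on its strand in either library. Cdk1 encodes the kinase that drives entry into mitosis. Its values of 1.5 and 0.5 (centred log2 ratio -1.21, range -1.41 to -1.02) came from transcripts of 115 and 122 bp in the 3' UTR of Rhobtb1, on the strand opposite to Cdk1. The members whose values came from their own strand and that were at least 2-fold apart were Cdkn1a, Rb1 and Ccnd3.

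Among the CDK inhibitors, Cdkn1a (ENSMUSG00000023067.14, mm10 chromosome 17, 29090976 to 29100727, plus strand) encodes p21, which binds and inhibits cyclin-CDK complexes. Its highest scores of 1.0 and 2.3 gave 1.58 on the centred log2 scale, with a rounding range of 1.48 to 1.69, or 2.99-fold. Genes with a ratio at least that high numbered 205 of 8879. The first transcript of the gene in both libraries began at the downstream RefSeq start, and none began farther upstream within the gene. In control, a 598 bp transcript ran from 14 bp before that start to 583 bp after it with a score of 1.0. Transcripts of 487 bp with a score of 0.2 and of 213 bp with a score of 0.3 followed inside intron 1. The rest of the gene body had no called transcript in control.

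After IL-4, a 2413 bp transcript with a score of 2.3 began 8 bp after the same start. It was followed by a transcript of 1452 bp with a score of 0.4, also in intron 1, and by one of 2497 bp with a score of 0.3 that reached into exon 3. The 5' end of this last transcript lay 209 bp after a further start that GENCODE lists inside the gene. Past the annotated end, 6958 bp from the start, lay a transcript of 556 bp with a score of 1.3. At the same place the control library had one of 99 bp with a score of 0.3. The 4 IL-4 transcripts together filled 91.9% of the 7529 bp from the first to the last base. A transcript of 319 bp with a score of 0.2 lay inside intron 1 on the opposite strand after IL-4, where none was called in control. The number of bases covered on the gene and its strand was 1298 in control and 6362 after IL-4, or 4.90 times as many.

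Score times length, summed over the own-strand transcripts that overlap a gene, combines height and extent. For Cdkn1a it was 759.3 in control and 6879.8 after IL-4, or 3.06 on the centred log2 scale. Genes with a ratio at least that high numbered 93 of the 7210 that could be compared in this way. By this measure 1 of 10 members, Cdkn1a, was at least 2-fold higher (10.0%, against 16.6% of all genes). Ccnd3 (-1.58), Rb1 (-1.49) and Cdc6 (-1.15) were at least 2-fold lower, that is 3 of 10 members (30%, against 16.7% of all genes). No rounding range was computed for this measure. The Cdc6 scores of 0.2 and 0.1 were compatible with no change, and the Ccnd3 transcripts of the 2 libraries lay at different places. Over all 48 members the sum was 3939 in control and 9153.7 after IL-4. Cdkn1a made up 19.3% of it in control and 75.2% after IL-4. Without Cdkn1a the sum was 3179.7 in control and 2273.9 after IL-4, a ratio of 0.715 before centring. The median gene stood at 0.12 on the log2 scale before centring by this measure. Rb1 made up 773.5 and 299.0 of these sums, and 32 members added nothing. Cdk2, E2f1, E2f3, Mki67, Tyms and Ezh2 added more after IL-4, so the ratio does not describe each gene.

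**Figure D3:**
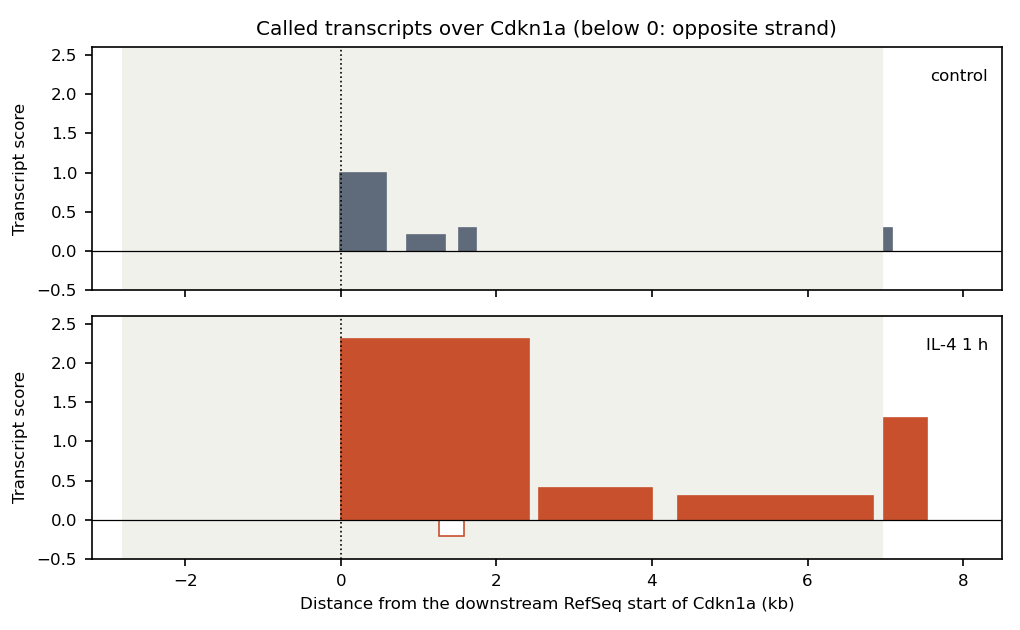
Transcripts called over Cdkn1a in control (upper panel) and after IL-4 (lower panel), with distance from the downstream RefSeq start in kb on the horizontal axis and transcript score on the vertical axis. Shading marks the annotated gene and the open bar below 0 a transcript on the opposite strand, and the control transcripts stop 1737 bp after the start until the gene end, whereas after IL-4 they continue across the gene with a highest score of 2.3.

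The promoter from which the Cdkn1a transcripts began is shown with those of Mki67, a proliferation marker with a transcript at its start after IL-4, and Cdc6, a licensing gene. The called transcripts of Cdc6 began upstream of the sequence shown, near another annotated start, and ended inside it, before the RefSeq start. The sequences are the 250 bases before the annotated start, from RefSeq on GRCm38.p6, written 5' to 3' on the strand of the gene. They lie at chr17:29093519-29093768 (plus strand) for Cdkn1a, chr11:98907901-98908150 (plus strand) for Cdc6 and chr7:135716380-135716629 (minus strand) for Mki67. Capitals mark matches, on either strand, to the motifs described next.
Cdkn1a: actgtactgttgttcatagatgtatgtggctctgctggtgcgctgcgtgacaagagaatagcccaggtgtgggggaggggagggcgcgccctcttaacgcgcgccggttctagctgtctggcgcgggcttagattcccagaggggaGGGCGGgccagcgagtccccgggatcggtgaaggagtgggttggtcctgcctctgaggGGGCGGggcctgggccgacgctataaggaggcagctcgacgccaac
Cdc6: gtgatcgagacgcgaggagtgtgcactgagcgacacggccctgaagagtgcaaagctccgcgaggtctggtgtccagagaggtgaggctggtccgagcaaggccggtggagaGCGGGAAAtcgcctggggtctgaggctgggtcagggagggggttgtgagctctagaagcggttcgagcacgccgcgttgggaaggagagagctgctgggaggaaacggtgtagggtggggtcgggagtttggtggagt
Mki67: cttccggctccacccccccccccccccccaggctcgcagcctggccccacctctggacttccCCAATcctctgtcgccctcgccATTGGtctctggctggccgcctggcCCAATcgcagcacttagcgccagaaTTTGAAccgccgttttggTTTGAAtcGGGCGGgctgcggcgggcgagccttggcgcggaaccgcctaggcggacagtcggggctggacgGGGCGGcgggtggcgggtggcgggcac

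Motifs were counted in the 300-base RefSeq windows (250 bases before and 50 after each start) of the 40 members that had one, 46 windows in all, and in all 32851 windows. The E2F motif TTTNNCGC was found in 14 of the 46 member windows (30.4%) and in 5.17% of all windows. Those 14 windows belonged to Cdc6, Cdk1, Cdk2, Cdk6, Cdt1, E2f2, E2f3, Ezh2, Mcm3, Mcm5, Mcm6, Mcm7, Pola1 and Tyms. The cell cycle homology region TTTGAA, known from promoters of G2 and M phase genes, was found in 30.4% of member windows and 17.9% of all windows. Its 14 member windows were those of Mki67, Plk1, Aurka, Ccnb2, Cdc20, Top2a, Kif11, Kif23, Cenpf, Bub1b, Cdk1, E2f2, E2f3 and Mcm2. The mitotic genes Ccnb1, Bub1, Cenpe and Mad2l1 had no match. The CCAAT box (CCAAT) was found in 71.7% and 37.4%, and the GC box (GGGCGG) in 76.1% and 35.7%. The STAT6-type motif TTCNNNNGAA was found in 1 member window, that of Top2a (2.17%), and in 6.95% of all windows, and the STAT-type motif TTCNNNGAA in 1, that of Mcm5 (2.17%), and in 8.30%. Both strands were searched, and 5 pairs of matches overlapped, 2 of them between different motifs. Member windows were richer in G and C (median 59.2%, against 52.7% of all windows) and in CG dinucleotides (median 24 against 7), and the part of base composition in these shares was not tested. A match is a stretch of letters and not a shown binding site. Mki67 held TTTGAA starting 116 and 98 bases before its start and CCAAT boxes starting 188, 166 and 141 bases before it. Cdkn1a held GC boxes starting 104 and 46 bases before the start, and Cdc6 an E2F match starting 138 bases before it.

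Cdkn1b (ENSMUSG00000003031.14, chromosome 6, 134920401 to 134925513, plus strand) encodes p27, another CIP/KIP inhibitor. Its value, read in the 5' UTR both times, was 0.5 in control and 0.6 after IL-4 (centred log2 ratio 0.64, rounding range 0.38 to 0.91). This gene moved the other way by extent. It had 5 own-strand transcripts over 1180 bp without IL-4 (23.1% of the gene) and 2 over 667 bp after IL-4 (13%), and its centred score times length was -0.68 on the log2 scale. Cdkn2c, which encodes the INK4 inhibitor p18 of CDK4 and CDK6, had 0.5 in control and 0.4 after IL-4 (0.06, -0.27 to 0.38). Both values lay on the strand opposite to Cdkn2c near its start, and no own-strand transcript was called. Of the 3 CDK inhibitors, Cdkn1a was thus alone in being higher after IL-4 by both score and extent.

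**Figure D4:**
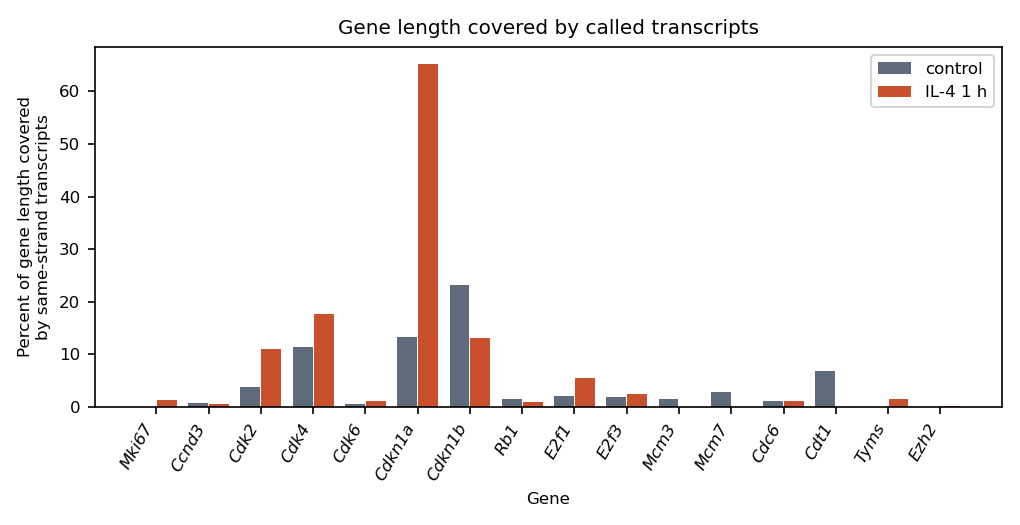
Percent of gene length covered by called transcripts of the gene's own strand (vertical axis) in control (grey bars) and after IL-4 (orange bars), for the 16 members with at least 1 such transcript. Cdkn1a goes from 13.3% to 65.2%, Cdkn1b from 23.1% to 13%, and the other members stay at 17.6% or less in both libraries.

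In the RB-E2F switch, Rb1 (ENSMUSG00000022105.6, chromosome 14, 73183673 to 73325822, minus strand) encodes the protein that holds E2F factors inactive until it is phosphorylated. Its values of 1.6 and 0.4 came from overlapping transcripts in intron 3, of 84 and 159 bp (centred log2 ratio -1.62, -1.86 to -1.41), or 3.08-fold lower. The gene had 15 own-strand transcripts in control and 7 after IL-4. Of the 15 control transcripts, 6 overlapped an IL-4 transcript on the same strand. The score after IL-4 was lower at 5 of these 6 places and equal at 1. In intron 17, a score of 1.1 in control met 0.4 after IL-4, and another of 0.8, in an A-rich low-complexity stretch, met 0.3. In intron 1, a score of 0.9, annotated in control as a simple repeat, met 0.4. The score was thus lower after IL-4 at most of the matched places, while 9 of the control transcripts matched none. Own-strand transcripts covered 1.38% of the gene in control and 0.967% after IL-4, so most of its body was not read. A 652 bp transcript of score 0.1 at its start was called only after IL-4.

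Several Rb1 transcripts were short, and transcript length differed between the libraries as a whole. Over all 26995 transcripts of the control library that matched one after IL-4 by position, median lengths were 235 bp (control) and 315 bp (IL-4). At these places the median log2 ratio of scores was -0.32 before centring, and 54.3% of scores were lower after IL-4. Relative to that median, the 6 matched places of Rb1 had a median log2 ratio of -0.97 by score. By score times length, where the median of all matched places was 0.12, the 6 places stood at -0.82 relative to it. Without transcripts under 100 bp, the centred log2 ratio of Rb1 was 0.68. That setting drops the control transcripts in introns 3 and 1 but keeps the longer IL-4 transcripts at the same places. It sets the IL-4 score of 0.4 in intron 3 against a control score of 0.3 from an intergenic transcript 27870 bp upstream of the gene.

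E2f3, an activating E2F factor, had values of 0.6 and 0.5 in the control and IL-4 libraries (centred log2 ratio 0.12, -0.15 to 0.38), and its own-strand coverage was 1523 and 1888 bp in 7 and 6 transcripts. At its 6 matched places the IL-4 score was lower at 3, equal at 1 and higher at 2, both of the latter within the same IL-4 transcript. E2f1, the activating E2F factor most closely tied to S-phase entry, had a single own-strand transcript in each library, with scores of 0.2 and 0.1 and lengths of 209 and 566 bp in intron 1. Its rounding range of -1.94 to 0.38 included no change. For E2f2 no value was found in either library. Within the RB-E2F group, the rounding range lay wholly below 0 for Rb1 and included no change for E2f1 and E2f3.

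**Figure D5:**
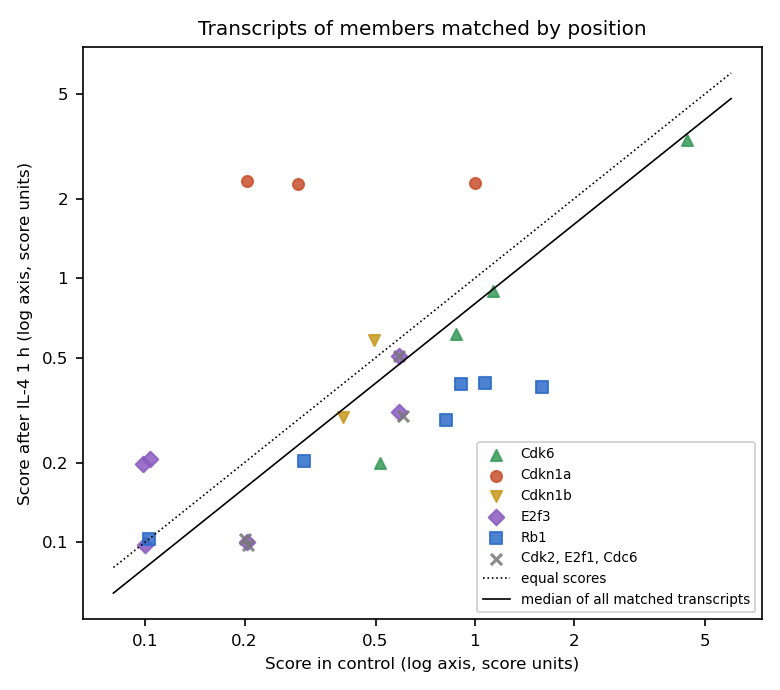
Score in control (horizontal log axis) against score after IL-4 (vertical log axis) for the 25 own-strand control transcripts of members that overlapped an IL-4 transcript, with points spread slightly to show ties, the dotted line marking equal scores and the solid line the median of all 26995 matched transcripts. The 3 points of Cdkn1a lie above both lines at an IL-4 score of 2.3, and 4 points of Rb1 lie well below them.

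Counted over the members, 47 own-strand transcripts were called in control, of which 25 in 8 genes overlapped an IL-4 transcript. The IL-4 score was lower at 17 of the 25 places (68%, against 54.3% of all matched transcripts), equal at 2 and higher at 6 (24%, against 22.8%), with a median of -0.09 relative to all matched transcripts. Higher scores were those of Cdkn1a at 3 places, E2f3 at 2 and Cdkn1b at 1. The 3 places of Cdkn1a, with control scores of 1.0, 0.3 and 0.2, all fell within the same IL-4 transcript of score 2.3.

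Among the CDKs, Cdk6, a G1 kinase partner of the D cyclins, carried the highest value of any member. Its value was 4.4 in control and 3.4 after IL-4, from transcripts of 61 and 59 bp at the same place in intron 2, with a centred log2 ratio of 0.01 (-0.03 to 0.04). Cdk6 thus kept its place relative to the median gene at that position. Other matched places of Cdk6 had 1.1 and 0.9, 0.9 and 0.6, and 0.5 and 0.2 in control and IL-4. It had 6 own-strand transcripts over 918 bp in control and 9 over 2146 bp after IL-4, the latter including one of score 0.1 at the start. Cdk4, the other D-cyclin partner, had 0.2 in control and 0.1 after IL-4, with own-strand coverage of 500 and 770 bp (11.4% and 17.6% of the gene). The transcripts that matched the Cdk4 strand did not overlap between the libraries.

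Cdk2, the kinase partner of the E and A cyclins, had values of 0.6 in control and 0.4 after IL-4 (-0.21, -0.51 to 0.09). The control value lay in intron 5 of the gene. The IL-4 value lay upstream on the opposite strand, inside the neighbouring gene Pmel. On its own strand, Cdk2 had 2 transcripts over 262 bp in control and 3 over 772 bp with IL-4 (3.69% and 10.9% of the gene), the highest scores being 0.6 and 0.5. The added IL-4 transcript, of 433 bp and score 0.2, began 127 bp after an annotated start. Like Cdk4 and Cdk6, Cdk2 was covered over more bases after IL-4 without a higher printed score. Coverage was longer after IL-4 for 7 of the 10 members detected in both libraries and shorter for 3. Among matched transcripts of all genes, the median length was also greater with IL-4 (315 bp, against 235 bp without). The longer coverage can therefore not be read as particular to the CDKs.

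Of the cyclins, the D cyclins bind CDK4 and CDK6 in G1, and Ccnd3 was the D cyclin with a value. Ccnd3 (ENSMUSG00000034165.16, chromosome 17, 47505051 to 47599691, plus strand) had 3 transcripts in control with scores of 0.7, 0.2 and 0.1, and 2 after IL-4 with scores of 0.2 and 0.1. The control value was a 185 bp transcript in a B1 SINE repeat of intron 1, and the IL-4 value a 219 bp transcript elsewhere in intron 1. The centred log2 ratio was -1.43 (-1.94 to -1.0). No Ccnd3 transcript of one library overlapped one of the other, so the ratio compared different places. Ccnd1 and Ccnd2 had no row in the files used here. With the transcript nearest the start as the value, the centred log2 ratio of Ccnd3 was 1.0.

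The later cyclins gave no own-strand transcript. Ccnb2, a B-type cyclin of mitosis, had values of 2.7 and 2.4 (0.21, 0.15 to 0.27), but both lay in the 3' UTR of the neighbouring gene Rnf111, upstream of Ccnb2 and on the same strand. Ccna2 (S phase and G2), Ccnb1 (mitosis), Ccne1 and Ccne2 (entry into S phase) had no value.

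Of the 9 licensing and helicase genes, 4 had an own-strand transcript in control and 1 after IL-4. The shares over all protein-coding genes were 36.0% and 37.7%. In the wider list described below, 7 of 16 licensing and helicase genes had one in control and 8 after IL-4. Among the 9 members, Cdc6, the loader of the MCM helicase, was the one seen in both. It had a transcript at its promoter of 371 bp and score 0.2 in control and of 363 bp and score 0.1 after IL-4. The rounding range of -1.94 to 0.38 included no change. Mcm3 and Mcm7, subunits of the MCM helicase, each had a transcript of score 0.2 near the start in control, of 266 and 222 bp, and none after IL-4. Cdt1, the partner of Cdc6 in MCM loading, had an own-strand transcript of 653 bp and score 0.2 over its start in control and none after IL-4. At the same promoter, on the opposite strand, Cdt1 had a score of 0.4 in both libraries, with transcripts of 218 and 908 bp (centred log2 ratio 0.38, 0.02 to 0.74).

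Mcm6, a further MCM subunit, had values of 0.5 and 0.3 (-0.36, -0.76 to 0.02), from a simple repeat in an intron of the neighbouring gene Dars. Gins1, a subunit of the GINS complex of the active helicase, had a value of 0.2 on the opposite strand in control and none after IL-4. No value was found for Mcm2, Mcm4 or Mcm5. All own-strand scores in this group were 0.2 or 0.1, at or next to the lowest score printed for these genes.

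Of the 5 genes of DNA synthesis and nucleotide supply, Tyms, which encodes thymidylate synthase, had an own-strand transcript of 216 bp and score 0.1 at exon 1 after IL-4 and none in control. Pola1, the catalytic subunit of the primase-associated polymerase alpha, had a value of 0.1 in control, on the opposite strand at its promoter, and none after IL-4. Pcna (the sliding clamp), Rrm1 and Rrm2 (ribonucleotide reductase) had no value.

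No own-strand transcript was called for any of the 7 mitotic kinase and checkpoint genes in either library. Plk1, a kinase of mitotic entry, had a value of 0.1 after IL-4, in the 3' UTR of the neighbouring gene Dctn5. Mad2l1, a spindle checkpoint gene, had a value of 0.2 in control, on the opposite strand upstream of its start. Aurka, Bub1, Bub1b and Cdc20 had no value.

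Of the 6 genes of mitotic motors, kinetochores and chromosome structure, Mki67 was the one with an own-strand transcript. Mki67 (ENSMUSG00000031004.8, chromosome 7, 135689784 to 135716361, minus strand) encodes the proliferation marker Ki-67. No transcript carried its name in control. After IL-4, a 411 bp transcript of score 0.2 began 73 bp upstream of the annotated start and ended 337 bp after it, over the first exon. A 414 bp transcript of score 0.1 pointed away from the gene, with its 5' end 347 bp upstream. These transcripts marked the start of Mki67, and none was called over the rest of the gene on its strand (1.27% covered). Kif11, a spindle motor, had 0.2 in both libraries from different places on the opposite strand (0.38, -0.36 to 1.12). At its promoter, overlapping opposite-strand transcripts had scores of 0.2 in control and 0.1 after IL-4. Kif23, a motor of cytokinesis, had 0.2 and 0.1, both in the neighbouring gene Paqr5. Top2a, Cenpe and Cenpf had no value.

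Of the repair and chromatin genes, Ezh2, the histone methyltransferase of Polycomb repressive complex 2, had 0.3 in control and 0.2 after IL-4 in an intergenic SINE repeat upstream (-0.21, -0.84 to 0.38). An own-strand transcript of 137 bp and score 0.2 in intron 1 was called only after IL-4, in a simple repeat. Brca1, a homologous recombination gene, had 0.1 on the opposite strand in intron 2 in control and none after IL-4.

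Transcripts whose 5' end lay within 500 bp of an annotated start were counted for all 48 genes. Such a transcript was found on the gene's own strand for 10 members in each library, and on the opposite strand for 12 members in control and 8 after IL-4. The same count was not made over all genes, so these numbers cannot be read as a change particular to the members. Opposite-strand transcripts at the starts of Cdk2, Mcm4, Mcm7 and Aurka lay inside the genes Pmel, Prkdc, Ap4m1 and Cstf1, which run the other way from the same region. Own-strand transcripts near the start were present in both libraries for Cdk4, Cdkn1a, Cdkn1b, E2f3 and Cdc6. They were present in control alone for Ccnd3, E2f1, Mcm3, Mcm7 and Cdt1, and after IL-4 alone for Mki67, Cdk2, Cdk6, Rb1 and Tyms. Those called in 1 library only had scores of 0.1 or 0.2.

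A wider list of 111 other genes of the cell cycle was read in the same way. Of these 111, 43 had an own-strand transcript in control and 45 after IL-4. A value was found for 56 in control and 59 after IL-4, and for 49 in both. Of the 49, 6 were at least 2-fold higher (12.2%, against 8.06% of all genes) and 3 at least 2-fold lower (6.12%, against 8.62%). Over their whole rounding range, 2 were higher (4.08%, against 3.67%) and 1 lower (2.04%, against 3.85%). Orc4, a subunit of the origin recognition complex, had 1.2 in control and 2.1 after IL-4 (centred log2 ratio 1.19), but 0.20 by score times length. Kif2c, a kinesin of the kinetochore, had 1.6 and 3.0 (1.29), and Gins2, a GINS subunit, 1.6 and 0.5 (-1.30), and neither had an own-strand transcript. The median centred log2 ratio of the 49 genes was 0.38, which is the value of any gene with equal printed scores in both libraries. Ccnf, for example, had 0.2 both times, with a rounding range of -0.36 to 1.12. That median is therefore not a shown rise of these genes.

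The labelled cell type was checked by its markers. All 10 macrophage genes of a fixed list, among them Csf1r, Adgre1 and Itgam, had own-strand transcripts in both libraries, with a summed score times length of 40759.8 in control and 51899.8 after IL-4. Of 6 neutrophil genes, S100a8 had own-strand transcripts in both libraries, Mpo in control only and S100a9 after IL-4 only (summed score times length 133.9 and 411.3). None of the B and T cell, erythroid, fibroblast or dendritic cell markers had any.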

How the data were processed

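Nascent RNA was measured in 2 GRO-seq libraries, 1 per condition, grouped by the treatment label. Reads had been aligned with BWA (0.7.10) to mm10, with SAMtools 0.1.19 and HOMER 4.2 also named in the submitters' processing notes, and transcripts were called and annotated per library. The deposited score of each transcript was printed to 1 decimal by the authors, and whether it was scaled to library size is not given in the sources used here. Read counts were not analysed here.

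The value of a gene was the highest score carrying its name. Ratios were centred on the median of all genes in both libraries and called at 2-fold. Own-strand overlap (at least 1 bp) used GENCODE M21 genes of the same build. Python 3.11.15, numpy 2.4.6 and pandas 2.3.3 were used. The ratio step was run on control scores multiplied by known fold changes and rounded. That run held no noise between libraries and no calling of transcripts, so it does not cover those limits. Full values were given for members beyond 2-fold, those in 1 library only, the 12 with the highest value, the D cyclins, Cdkn1a and Mki67, and, of the other cell cycle genes, those beyond 2-fold over their whole rounding range. Other members are given for completeness. The members and lists were chosen with earlier results of these data known.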

Additional observations from a re-analysis of the deposited data

How the results depend on the processing

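The counts and the median over members were recomputed with other gene values, filters and thresholds. The use of named transcripts that overlap the gene, and the score limit of 0.2, were chosen after seeing the data. The median centred log2 ratio of -0.21 became -0.58 with the transcript nearest the start, -0.58 with no centring and -0.65 with named transcripts that overlap the gene. The 2 higher members became 5 with the transcript nearest the start, and 1 with own-strand overlap by highest score, 1 with score times length, 1 without transcripts under 100 bp and 1 with named transcripts that overlap the gene. The 3 lower members became 8 with the transcript nearest the start, 7 with no centring and 7 with a 1.5-fold threshold. Except for score times length, the share of all genes called at these settings is not given here. These counts can therefore not be read as a change in the members. Members with a value in both libraries numbered 10 in place of 19 with either own-strand measure and 11 with named transcripts that overlap the gene. Direction turned for Aurkb (-0.74) and Rb1 (0.68) without transcripts under 100 bp, and for Ccnd3 (1.0) with the transcript nearest the start. The Rb1 setting compares different places. Among members under 2-fold, the sign turned for Cdkn1b with the sum of scores (-0.86) and score times length (-0.68), for Cdk2 under 4 alternatives (0.15 to 1.0), for Cdk6 under 8 (-3.46 to -0.02), for Cdkn2c under 4 (-0.32 to -0.03), for E2f3 under 3 (-0.58 to -0.10) and for Ccnb2 under 2 (-0.17 both times). Of the 12 members with the highest values, Cdkn1a, Cdk1 and Mcm6 kept their sign under each alternative that gave a value. For Cdk1 and Mcm6 this says nothing of the gene itself. Each had 1 named transcript per library, outside the gene, and the own-strand measures gave no value. The other causes were not tested. Cdkn1a was at least 2-fold higher under each alternative run, from 1.20 with no centring to 3.06 by score times length. No paired analysis was possible because there was 1 library per condition. Depth is unknown, and scores of 0.1 and 0.2 cannot be read as changes between libraries.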
